A study of Homo sapiens with 6 samples.

Results

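RNA of 27 genes of the Wnt pathway was followed in SH-SY5Y, an established human neuroblastoma line, after treatment with securinine or 16F16. The activity of the pathway was not measured. The genes were the protein-coding genes of the platform annotation whose symbol starts with WNT, FZD, SFRP, DKK, RSPO, AXIN, DVL, TCF7 or LEF1, and they were 27 of 14884 genes measured. They comprised 1 Wnt ligand (WNT2), 10 Frizzled receptors, 4 secreted Frizzled-related proteins, 5 genes of the Dickkopf family, 4 R-spondins, the scaffolds AXIN1 and AXIN2, and the transcription factor LEF1. No gene with a DVL or TCF7 symbol was analysed here. WNT2 was the only gene with a WNT symbol in the annotation, so the expression of other Wnt ligands was not examined here. The annotation named 16098 of 53617 probe sets, and probe sets without a name were not used. Genes are called measured where a probe set carried their name. The rule reads gene names and no measured value, and it was set with earlier results of these data known.

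Wnt ligands are secreted lipid-modified proteins that bind Frizzled receptors and the co-receptors LRP5 and LRP6, and in the canonical branch this stabilises beta-catenin, which acts with TCF and LEF factors on target genes. Secreted Frizzled-related proteins bind Wnt ligands outside the cell, Dickkopf proteins such as DKK1 bind LRP5 and LRP6 and block them, and R-spondins raise the amount of Frizzled at the surface through LGR receptors. AXIN1 and AXIN2 are scaffolds of the complex that marks beta-catenin for destruction, and AXIN2 is itself a widely used target gene of the pathway. The pathway acts in the neural crest, from which the sympathetic lineage and neuroblastoma derive.

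All cells were SH-SY5Y in serum-containing medium, with no genetic change between groups. They received 30 µM securinine, 4 µM 16F16 or the solvent methanol (mock treatment) for 24 h. Both compounds block protein disulfide isomerase according to the series' design text, an enzyme family that helps secreted and membrane proteins gain correct disulfide bonds. Each group had 2 arrays, called biological replicates in the labels without saying how the cultures were separated, so p-values measure the spread between these samples. The doses differ, so a difference between compounds is a difference between the treatments as given. The labels give no treatment date and no array batch.

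Expression was read on Affymetrix Human Gene 2.0 ST arrays as log2 values, with 1 probe set for each of the 27 genes. A difference of 1 on this scale is a 2-fold change. The array medians over 53617 probe sets lay between 4.16 and 4.23, and arrays of a group correlated at 0.986 to 0.990 across probe sets. A gene is said below to have risen or fallen only where its adjusted p in limma was under 0.05 over all 14884 genes. Detection calls were not used here, so the place of a probe set among all probe sets on its array shows how bright it was. Of the 27 genes, 20 lay above the array median on all 6 arrays. WNT2, RSPO2, RSPO3, SFRP2 and DKK4 lay at or below the median on all 6 arrays, FZD10 on 3 and SFRP5 on 1, and DKK4 was at or below the lower quartile on 2. For these 7 dim genes a missing difference may not be read as steady expression. FZD8, SFRP4 and FZD9 had lowest percentiles of 50.1, 50.2 and 50.3, and the same limit holds for them.

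The cells carried markers of noradrenergic neuroblastoma, some of which moved with treatment. Of 11 measured markers of 13 listed, none was at or below the lower quartile on all arrays. HAND2, GATA3 and DBH lay above the 98th percentile on every array, and TH lay lower, between percentiles 64.1 and 69.8. HAND2, GATA3 and TH did not pass with either compound. The summed linear signal of the 11 markers was 14003 to 15001 with securinine, 16719 to 17185 with 16F16 and 19264 to 19668 in mock cells. Of the 11, 6 fell with securinine and 3 with 16F16, against 10.6% and 0.779% of all genes tested. For 7 measured mesenchymal markers the sum was 1645 to 1660 with securinine, 1683 to 1823 with 16F16 and 1272 to 1349 in mock cells. SNAI2, the brightest of them, weighs most in this sum. Its mean was 9.75 with securinine, 9.73 with 16F16 and 9.12 in mock cells. These 7 did not move together. With securinine 4 had a log2 difference above 0 and 3 below, and 3 rose and 0 fell, against 8.40% and 10.6% of all genes. With 16F16 6 were above 0 and 1 below, and 0 passed. The part of these shifts in the Wnt gene results was not tested. The summed signal was 84 to 90 with securinine, 84 to 91 with 16F16 and 95 to 96 in mock cells for 3 Schwann and glial markers, and 161 to 180 with securinine, 161 to 202 with 16F16 and 176 to 182 in mock cells for 3 epithelial markers. For 2 blood and endothelial markers it was 28 to 34 with securinine, 24 to 27 with 16F16 and 25 on both mock arrays, and PECAM1 and CD14 were dim, CD14 rising by 0.57 ± 0.14 with securinine. In bulk RNA, fewer cells of a kind and less RNA per cell cannot be told apart.

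Promoter sequences are shown for the 3 genes with a change in any comparison that also have an entry in the RefSeq promoter table (GRCh38.p14), which held 16 of the 27 genes. Each runs 5′ to 3′ on the gene's strand from 250 bases before to 50 bases after the gene's start. Capitals mark TCF/LEF cores (CTTTG followed by 2 bases that are each A or T), GC boxes (GGGCGG) and the TATA box TATAAA, searched on both strands. The DKK1 promoter is that of an antagonist that rose with securinine, at chr10:52314031-52314330 on the plus strand, and the FZD1 and FZD5 promoters are those of receptors that fell, at chr7:91264183-91264482 on the plus strand and chr2:207769857-207770156 on the minus strand.
DKK1: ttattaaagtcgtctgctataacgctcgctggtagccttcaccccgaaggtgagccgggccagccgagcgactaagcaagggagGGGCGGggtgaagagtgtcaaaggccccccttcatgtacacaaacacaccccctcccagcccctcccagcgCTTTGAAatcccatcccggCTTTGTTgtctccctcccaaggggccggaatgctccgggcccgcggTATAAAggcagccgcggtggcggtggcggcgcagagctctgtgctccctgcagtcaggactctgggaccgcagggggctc
FZD1: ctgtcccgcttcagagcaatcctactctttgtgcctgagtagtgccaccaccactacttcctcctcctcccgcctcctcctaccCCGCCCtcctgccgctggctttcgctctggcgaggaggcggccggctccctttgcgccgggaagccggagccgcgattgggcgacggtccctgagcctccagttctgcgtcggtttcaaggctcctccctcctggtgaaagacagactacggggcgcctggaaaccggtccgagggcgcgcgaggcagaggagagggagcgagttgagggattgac
FZD5: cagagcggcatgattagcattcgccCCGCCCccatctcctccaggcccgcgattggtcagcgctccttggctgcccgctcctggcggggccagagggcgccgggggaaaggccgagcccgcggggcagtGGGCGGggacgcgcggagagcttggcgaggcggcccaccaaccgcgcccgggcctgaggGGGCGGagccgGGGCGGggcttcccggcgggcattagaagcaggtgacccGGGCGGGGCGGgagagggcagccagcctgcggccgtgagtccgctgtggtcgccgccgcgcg
The DKK1 promoter held 2 TCF/LEF cores, 1 GC box and TATAAA, and it was the only one of the 16 promoters with a TCF/LEF core, a match found in 13.8% of the 35116 RefSeq promoters of this length. The FZD1 promoter held 1 GC box and the FZD5 promoter 6, some of which overlap, and neither held the other 2 motifs. A GC box was found in 15 of the 16 promoters, against 45.0% of all promoters. TATAAA was found in those of DKK1 and FZD8, against 11.5% of all. CpG dinucleotides numbered 20 in the DKK1 promoter, 25 in FZD1 and 38 in FZD5, and the median was 28 over the 16 promoters and 14 over all promoters. These matches describe the letters of the window and are not binding sites.

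The first question was how the Wnt genes stood with securinine against mock. Receptors of the Frizzled family and the antagonist SFRP1 were lower, and the antagonist DKK1 was higher. FZD2, FZD7 and SFRP1 were each about 2-fold lower, FZD5 1.50-fold, DKK3 1.55-fold and FZD1 1.26-fold, and DKK1 was 1.96-fold higher. In total 1 of the 27 genes rose and 6 fell. Over all genes tested 19.0% passed, 8.40% higher and 10.6% lower. The median log2 difference was -0.14 over the 27 genes and -0.04 over all genes tested. DKK1, FZD2, FZD7 and SFRP1 passed also without any 1 of the 6 arrays. The count of 7 became 4 without securinine replicate 1 (4.71% of all genes then passed), mock replicate 1 (4.42%) or mock replicate 2 (4.23%).

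The 3 receptors FZD1, FZD2 and FZD7 form 1 subfamily by sequence, and all 3 fell with securinine. FZD2 stood at 6.53 and 6.39 with securinine, against 7.53 and 7.53 in mock cells. Its log2 difference was -1.07 ± 0.10 (SE, n = 2 arrays per group), with a limma adjusted p of 0.0041. FZD7, a receptor studied in stem and progenitor cells, stood at 6.03 and 5.81 with securinine, against 7.03 and 6.98 in mock cells. Its log2 difference was -1.08 ± 0.10, with a limma adjusted p of 0.0042. For FZD2 and FZD7 both securinine arrays lay below both mock arrays, as 33.9% of all genes did. FZD1 stood at 6.48 and 6.46 with securinine, against 6.84 and 6.78 in mock cells, a log2 difference of -0.34 ± 0.080 (limma adjusted p = 0.038). The FZD1 groups did not overlap, but its call ended without any 1 of the 6 arrays (adjusted p between 0.053 and 0.17) and with the replicate number as a block (0.066).

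**Figure D1:**
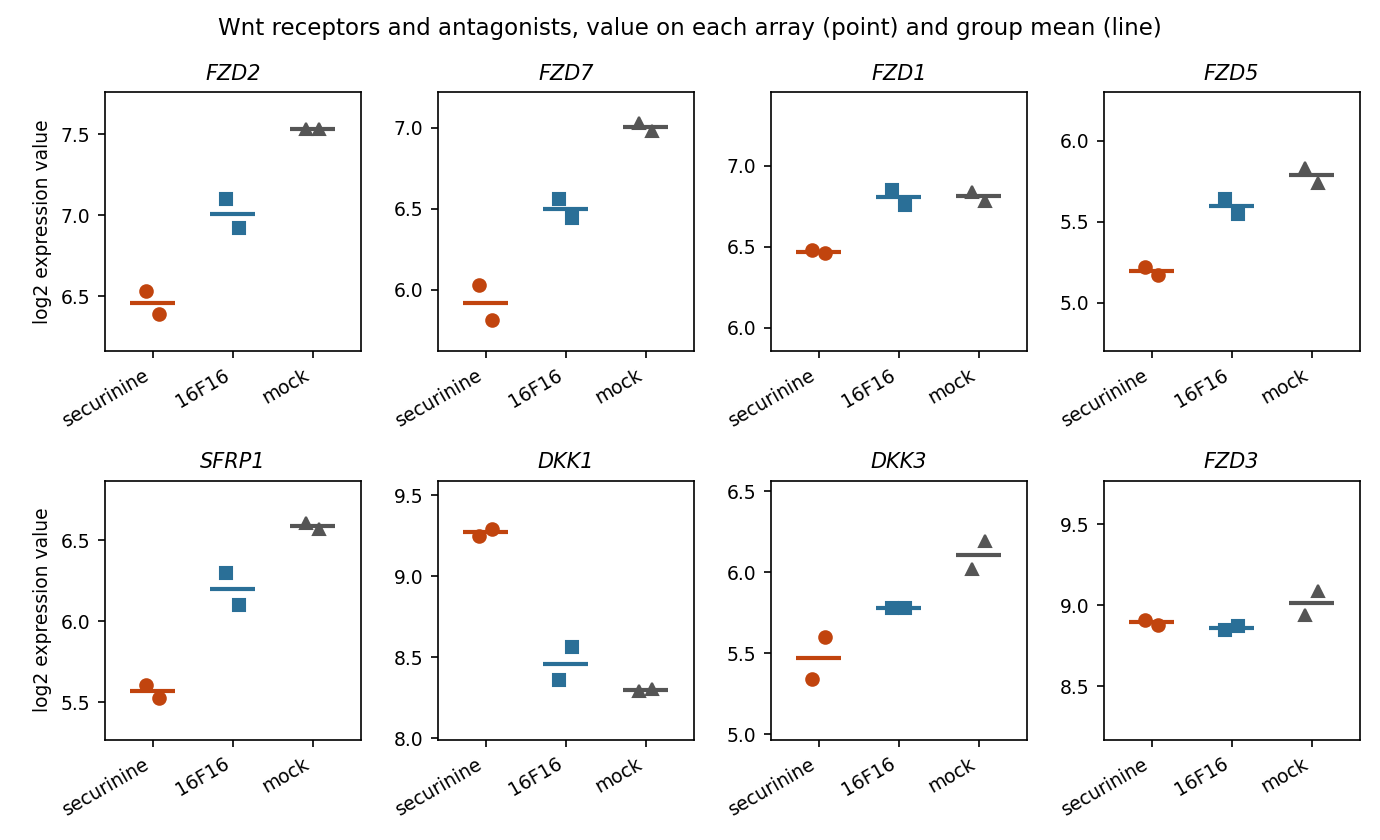
Log2 expression value of 8 genes on each array, with securinine, 16F16 and mock groups side by side on the horizontal axis, a point for each array and a line for the mean of 2. FZD2, FZD7 and SFRP1 are lowest with securinine and intermediate with 16F16, DKK1 is highest with securinine at 9.25 and 9.29, and FZD3 stays between 8.85 and 9.09.

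Of the other Frizzled receptors 1 passed. FZD5, which with FZD8 forms a subfamily, stood at 5.22 and 5.17 with securinine, against 5.83 and 5.74 in mock cells. Its log2 difference was -0.59 ± 0.084 (limma adjusted p = 0.0097). Both securinine arrays lay below both mock arrays, as 33.9% of all genes did. The FZD5 call ended when any 1 of the securinine or mock arrays was left out (limma adjusted p of 0.057 without securinine replicate 1 or 2, 0.066 without mock replicate 1 and 0.055 without mock replicate 2). FZD8 was at 4.23 and 4.44 with securinine, against 4.64 and 5.17 in mock cells, without passing (-0.57 ± 0.20, adjusted p = 0.11 in limma). FZD4, the receptor for norrin as well as for Wnt ligands, was at 4.39 and 4.94 with securinine, against 5.12 and 5.26 in mock cells. The FZD4 difference of -0.52 ± 0.19 did not pass either (limma adjusted p = 0.11), and its securinine arrays differed from each other by more than its mock arrays. FZD9 and FZD10, of the same subfamily as FZD4, were at -0.23 ± 0.15 and -0.20 ± 0.13.

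FZD3 and FZD6, the subfamily best known from planar polarity and axon growth, did not pass. FZD3 stood at 8.91 and 8.88 with securinine, against 8.94 and 9.09 in mock cells, and its log2 difference had a 95% interval from -0.33 to 0.10. FZD6 stood at 7.48 and 7.31 with securinine, against 7.41 and 7.35 in mock cells, with an interval from -0.27 to 0.30. The intervals of FZD3 and FZD6 leave out a fall as large as the FZD2 and FZD7 estimates. In 9 of the 10 Frizzled genes both securinine arrays lay below both mock arrays, and 33.9% of all genes did so. The median difference of the 10 Frizzled genes was -0.43.

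The secreted antagonists went both ways. SFRP1 stood at 5.61 and 5.53 with securinine, against 6.61 and 6.57 in mock cells. Its log2 difference was -1.02 ± 0.097 (limma adjusted p = 0.0042). Both securinine arrays lay below both mock arrays, as 33.9% of all genes did. SFRP2, SFRP4 and SFRP5 did not pass, with log2 differences of -0.13, -0.14 and 0.17, and SFRP2 and SFRP5 were among the dim genes.

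DKK1 stood at 9.25 and 9.29 with securinine, against 8.29 and 8.30 in mock cells. Its log2 difference was 0.97 ± 0.095 (limma adjusted p = 0.0042). DKK1 was the 1 gene of the 27 that rose. DKK3, a divergent member that is not a typical LRP5 and LRP6 blocker, stood at 5.34 and 5.60 with securinine, against 6.02 and 6.19 in mock cells. The DKK3 difference was -0.64 ± 0.12 (limma adjusted p = 0.019), so DKK1 and DKK3 moved in opposite directions. The DKK3 call ended without securinine replicate 1 (limma adjusted p = 0.084), without mock replicate 1 (0.064) and without mock replicate 2 (0.10), and also over all probe sets (0.065). DKK2, which can activate or block LRP6 depending on the context, was at 7.01 and 6.92 with securinine, against 6.60 and 6.57 in mock cells, without passing (0.38 ± 0.18, limma adjusted p = 0.20). In the fit of the securinine and mock arrays alone DKK2 passed at the same difference (adjusted p = 0.044). DKKL1, a Dickkopf-like gene known from testis, and DKK4, which was dim, were at -0.24 ± 0.12 and -0.14.

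The intracellular members did not pass with securinine, although LEF1 did in the fit of the securinine and mock arrays alone. AXIN1 stood at 6.77 and 6.75 with securinine, against 6.65 and 6.55 in mock cells, a log2 difference of 0.16 ± 0.079. AXIN2, the feedback target, stood at 6.48 and 6.67 with securinine, against 6.78 and 6.91 in mock cells, a log2 difference of -0.27 ± 0.10 (adjusted p = 0.12 in limma). LEF1, a DNA-binding partner of beta-catenin, stood at 4.55 and 4.69 with securinine, against 5.03 and 5.04 in mock cells, a log2 difference of -0.41 ± 0.13 (limma adjusted p = 0.085). For AXIN2 and LEF1 both securinine arrays lay below both mock arrays, as 33.9% of all genes did. The 4 R-spondins had log2 differences between -0.14 and 0.00, and the ligand WNT2, which was dim, was at 3.39 and 3.23 with securinine, against 3.53 and 3.31 in mock cells.

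The second question was how these genes stood with 16F16 against mock. None of the 27 passed in limma, 4 had an unadjusted p under 0.05 (FZD2, FZD7, SFRP1 and DKK3, each lower), and of all genes tested 1.50% passed (0.719% higher and 0.779% lower) and 21.1% had an unadjusted p under 0.05. FZD2 was at 7.10 and 6.92 with 16F16, against 7.53 and 7.53 in mock cells, a log2 difference of -0.52 ± 0.10 (limma adjusted p = 0.071). FZD7 was at 6.56 and 6.44 with 16F16, against 7.03 and 6.98 in mock cells, a log2 difference of -0.50 ± 0.10 (limma adjusted p = 0.077). SFRP1 was at 6.30 and 6.10 with 16F16, against 6.61 and 6.57 in mock cells, a log2 difference of -0.39 ± 0.097 (limma adjusted p = 0.11). For FZD2, FZD7 and SFRP1 the 16F16 arrays lay below the mock arrays without overlap, as 27.7% of all genes did. When the variance prior followed intensity these 3 genes passed (adjusted p of 0.0041, 0.010 and 0.043), and 12.1% of all genes then passed.

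Other Frizzled receptors and antagonists did not pass with 16F16. FZD1 was at 6.85 and 6.76 with 16F16, against 6.84 and 6.78 in mock cells, with a 95% interval of the log2 difference from -0.20 to 0.19. FZD5 was at 5.64 and 5.55 with 16F16, against 5.83 and 5.74 in mock cells (-0.18 ± 0.084). FZD3 was at 8.85 and 8.87 and FZD6 at 7.0 and 7.23 with 16F16, with log2 differences of -0.16 ± 0.085 and -0.26 ± 0.11 from mock. DKK1 was at 8.36 and 8.56 with 16F16, against 8.29 and 8.30 in mock cells, with an interval from -0.07 to 0.40, which lies wholly below the DKK1 estimate with securinine. DKK3 was at 5.78 and 5.78 with 16F16, against 6.02 and 6.19 in mock cells, a log2 difference of -0.32 ± 0.12 (limma adjusted p = 0.20). The 2 DKK2 arrays with 16F16 were 6.69 and 7.24, the first near mock and the second the highest of the 6, and its log2 difference of 0.38 ± 0.18 was 0.11 without 16F16 replicate 2 and 0.65 without 16F16 replicate 1. AXIN1 was at 6.78 and 6.78, AXIN2 at 6.74 and 6.71 and LEF1 at 5.37 and 5.03 with 16F16, with log2 differences of 0.18, -0.13 and 0.17 from mock. The R-spondins had log2 differences between -0.18 and 0.26, and WNT2 was at 0.02.

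**Figure D2:**
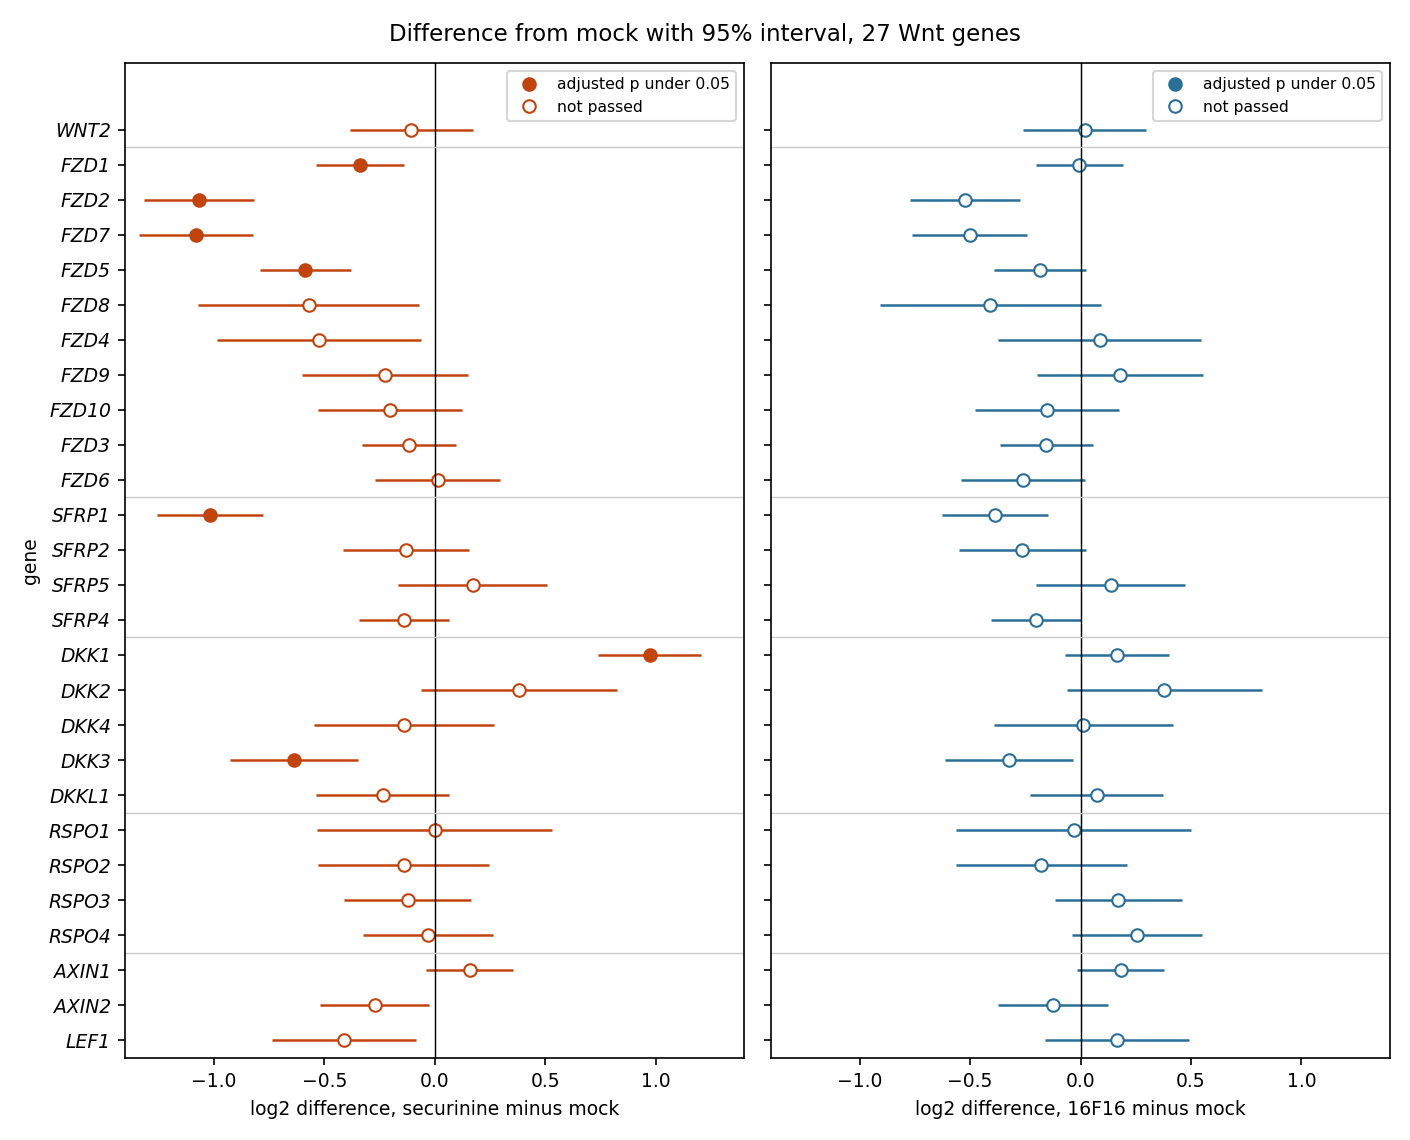
Log2 difference from mock of each of the 27 genes (horizontal axis) with its 95% interval from limma, for securinine on the left and 16F16 on the right, grouped by role from ligand to intracellular members. Filled points passed at an adjusted p under 0.05, which 7 genes did with securinine and 0 with 16F16.

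The third question was whether the 2 treatments differed from each other. Of the 27 genes 4 were higher and 1 was lower with 16F16 than with securinine, and over all genes tested 9.51% passed, 5.55% higher and 3.96% lower. DKK1 was 1.75-fold lower with 16F16, a log2 difference of -0.81 ± 0.095 (SE, n = 2 arrays per group, limma adjusted p = 0.014). SFRP1 was higher with 16F16 by 0.63 ± 0.097 (limma adjusted p = 0.023). FZD7 was higher by 0.58 ± 0.10 (0.031), FZD2 by 0.54 ± 0.10 (0.033) and FZD5 by 0.40 ± 0.084 (0.043), each an adjusted p in limma. In these 5 genes no 16F16 array reached the range of the securinine arrays, and 55.8% of all genes showed no overlap in 1 or the other direction. LEF1 (0.58 ± 0.13, adjusted p = 0.053), FZD1 (0.33 ± 0.080, adjusted p = 0.059) and FZD4 (0.61 ± 0.19, adjusted p = 0.10) were higher on both 16F16 arrays than on both securinine arrays without passing in limma.

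The calls between compounds changed over the whole table when an array was left out. Without securinine replicate 1, securinine replicate 2 or 16F16 replicate 1 no gene of the 27, and none of all genes tested, kept a call. DKK1 alone of the 27 kept its call without mock replicate 1, mock replicate 2 or 16F16 replicate 2. A smaller share of all genes passed in those fits too. For FZD3 the interval of the difference ran from -0.25 to 0.17, for AXIN1 from -0.17 to 0.22 and for AXIN2 from -0.10 to 0.39. For DKK2 the interval ran from -0.45 to 0.44, and for RSPO1 from -0.56 to 0.50.

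**Figure D3:**
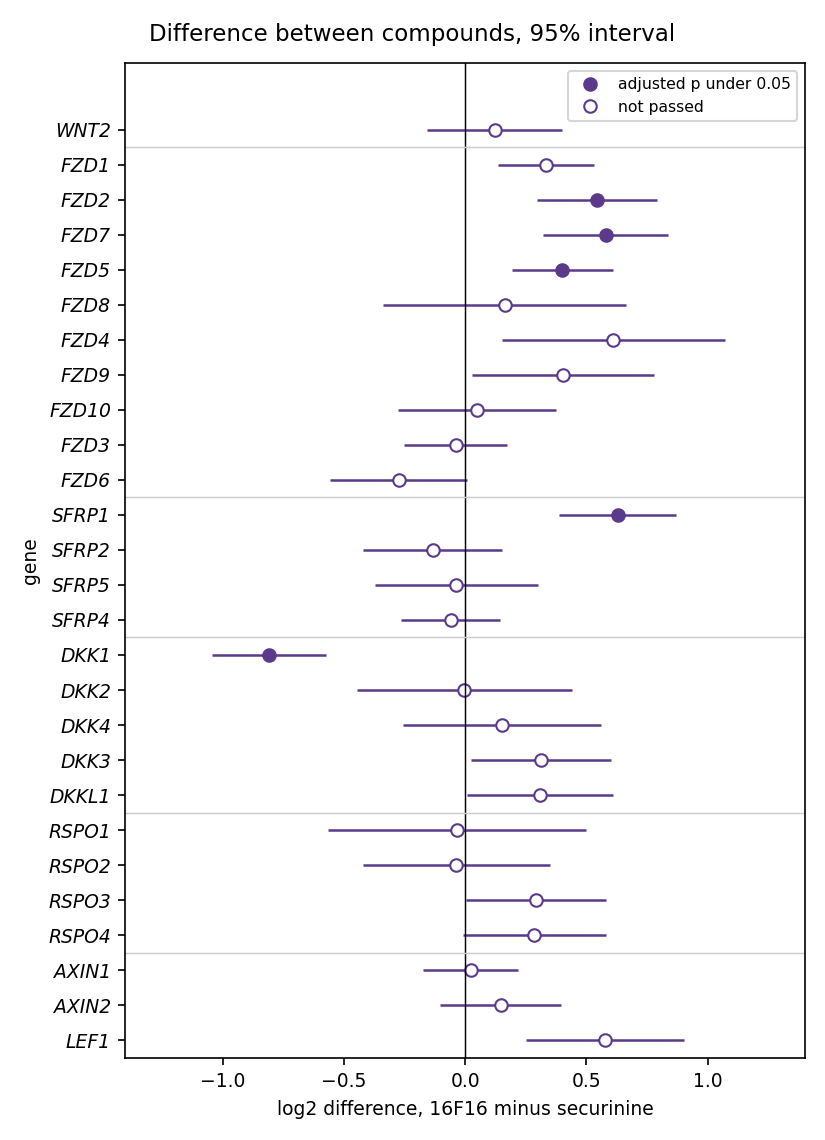
Log2 difference, 16F16 minus securinine, of each of the 27 genes (horizontal axis) with its 95% interval. DKK1 lies at -0.81 and SFRP1, FZD7, FZD2 and FZD5 between 0.40 and 0.63, and these 5 filled points passed at an adjusted p under 0.05.

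Other genes of the pathway were counted from a list of 83 genes, of which 58 were measured. With securinine 12 of the 58 rose and 10 fell, against 8.40% higher and 10.6% lower over all genes tested, and the median log2 difference was 0.03 over the 58 and -0.04 over all genes. With 16F16 1 rose and 2 fell, against 0.719% and 0.779% of all genes. Between compounds 5 were higher and 4 lower with 16F16 than with securinine, against 5.55% and 3.96% of all genes. The securinine counts became 3 and 6 without securinine replicate 1, 2 and 6 without securinine replicate 2, 2 and 5 without mock replicate 1 and 3 and 4 without mock replicate 2. With 16F16 against mock 0 of the 58, and 0 of all genes, passed in limma once any array was left out. The counts of 5 and 4 between compounds became 0 and 0 without securinine replicate 1 or 2 or 16F16 replicate 1, where 0 of all genes passed, and 3 and 0 without 16F16 replicate 2 or either mock replicate. The co-receptors and other receptors numbered 9, of which 1 rose and 2 fell with securinine. These were named after their values were seen. LRP6, a co-receptor of Frizzled, stood at 9.43 and 9.44 with securinine, against 8.91 and 8.89 in mock cells, a rise of 0.53 ± 0.076 (limma adjusted p = 0.0095). LRP5, its paralog, stood at 7.41 and 7.48 with securinine, against 7.80 and 7.85 in mock cells, a log2 difference of -0.38 ± 0.078 (limma adjusted p = 0.027). LGR4, a receptor of R-spondins, stood at 5.60 and 5.59 with securinine, against 6.26 and 6.31 in mock cells (-0.69 ± 0.097, limma adjusted p = 0.0093). LRP5 and LRP6 thus moved in opposite directions. The calls of LRP5, LRP6 and LGR4 ended when any 1 of the securinine or mock arrays was left out (limma adjusted p up to 0.13 for LRP5, 0.065 for LRP6 and 0.063 for LGR4). LGR4 was at 6.25 and 6.45 with 16F16, which was higher than with securinine by 0.76 ± 0.097 (limma adjusted p = 0.016).

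Of 2 measured genes of ligand release and inactivation, both fell with securinine, as 10.6% of all genes did. WLS, the carrier that takes Wnt ligands to the cell surface, stood at 6.33 and 6.25 with securinine, against 7.51 and 7.35 in mock cells. The WLS difference was -1.13 ± 0.10 (limma adjusted p = 0.0040). With 16F16 WLS was at 7.30 and 7.14, above both securinine arrays by 0.93 ± 0.10 on average (limma adjusted p = 0.012) and not called against mock. NOTUM, a secreted enzyme that removes the lipid from Wnt ligands, fell by 0.60 ± 0.11 with securinine (limma adjusted p = 0.017) and was named after its values were seen. The WLS call with securinine held without any 1 array (limma adjusted p up to 0.036), and the NOTUM call ended without any 1 of the securinine or mock arrays (up to 0.089).

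Downstream, 9 nuclear cofactors held 3 that rose with securinine and 0 that fell, against 8.40% and 10.6% of all genes. The acetyltransferases EP300 and CREBBP, which many factors share, rose by 0.89 ± 0.091 and 0.99 ± 0.10 (limma adjusted p of 0.0047 and 0.0049), and the chromatin remodeller CHD8, named after its values were seen, by 0.50 ± 0.078. Of 14 genes listed for beta-catenin and its destruction complex 7 were measured, and the beta-catenin gene CTNNB1 was not among them. Of these 7, GSK3B rose by 0.46 ± 0.093 and APC by 0.41 ± 0.083 with securinine, and 0 fell. Both were named after their values were seen. The CHD8, GSK3B and APC calls ended without any 1 of the securinine or mock arrays (limma adjusted p up to 0.080, 0.12 and 0.13), and those of EP300 and CREBBP held. Of 6 genes of the planar polarity and calcium arms, PRICKLE1 fell with both treatments. PRICKLE1 stood at 8.0 and 8.20 with securinine and 8.42 and 8.38 with 16F16, against 9.09 and 9.17 in mock cells. The limma adjusted p of PRICKLE1 was 0.0042 with securinine and 0.040 with 16F16. The PRICKLE1 call with 16F16, like that of every other gene, ended without any 1 array. It also ended with the replicate number as a block, in the fit of the 4 compared arrays and over all probe sets. Of the same 6, DAAM1 fell by 0.71 ± 0.11 and CAMK2D rose by 0.42 ± 0.087 with securinine, both named after their values were seen. Without securinine replicate 1, mock replicate 1 or mock replicate 2 the DAAM1 call ended (limma adjusted p up to 0.070), and the CAMK2D call ended without any of these or securinine replicate 2 (up to 0.14).

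Genes known as transcriptional targets of the pathway in other settings went both ways. Of 19 measured, 4 rose and 4 fell with securinine, against 8.40% and 10.6% of all genes, and 1 rose and 1 fell with 16F16, against 0.719% and 0.779%. NOTUM, described above, is also on this list and is 1 of the 4 that fell. VCAN, a matrix proteoglycan, stood at 5.97 and 5.96 with securinine and 7.35 and 7.39 with 16F16, against 7.38 and 7.25 in mock cells. The log2 difference of VCAN with securinine was -1.36 ± 0.083 (limma adjusted p = 0.0019), and it was higher with 16F16 than with securinine by 1.41 ± 0.083 (0.0088). MYC, a growth-promoting factor with many inputs, stood at 6.36 and 6.49 with securinine and 7.65 and 7.14 with 16F16, against 8.95 and 9.14 in mock cells, and it fell with both. TBX3, a T-box factor, stood at 9.44 and 9.55 with securinine and 9.76 and 9.87 with 16F16, against 9.13 and 9.11 in mock cells. TBX3 rose by 0.37 ± 0.087 with securinine (limma adjusted p = 0.037) and by 0.70 ± 0.087 with 16F16 (0.036). The MYC and TBX3 calls with 16F16 ended without any 1 array. They also ended with the replicate number as a block, in the fit of the 4 compared arrays and over all probe sets. The calls of VCAN and MYC with securinine held without any 1 array (limma adjusted p up to 0.028 and 0.031), and that of TBX3 ended without any 1 array (up to 0.15). The next lowest adjusted p-values with 16F16 were those of the AP-1 subunit JUN (-0.58 ± 0.095, 0.056), the transcription factor SNAI2 (0.61 ± 0.12, 0.071) and EP300 (0.45 ± 0.091, 0.074), none of which passed in limma. SNAI2 did rise with securinine (0.63 ± 0.12, limma adjusted p = 0.019). CD44 (0.71 ± 0.094, 0.0082) and CCND1 (0.53 ± 0.085, 0.013) also rose and NKD1 fell (-0.83 ± 0.14, 0.014), all named after their values were seen. CD44 lay at or below the array median on 5 arrays. Each of these securinine calls ended in some of the fits without 1 securinine or mock array. Of the other secreted inhibitors, 6 were measured, and FRZB, a Frizzled-related protein, fell by 0.93 ± 0.12 and DRAXIN rose by 0.74 ± 0.16 with securinine, both named after their values were seen. The FRZB call ended without mock replicate 2 (limma adjusted p = 0.051), and the DRAXIN call without securinine replicate 2, mock replicate 1 or mock replicate 2 (up to 0.12). None of 4 measured genes of receptor turnover passed in limma with either compound. Of these 4, 1 had an unadjusted p under 0.05 in limma with securinine, as 4998 of all 14884 genes did. With 16F16 0 did, against 21.1% of all genes.

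**Figure D4:**
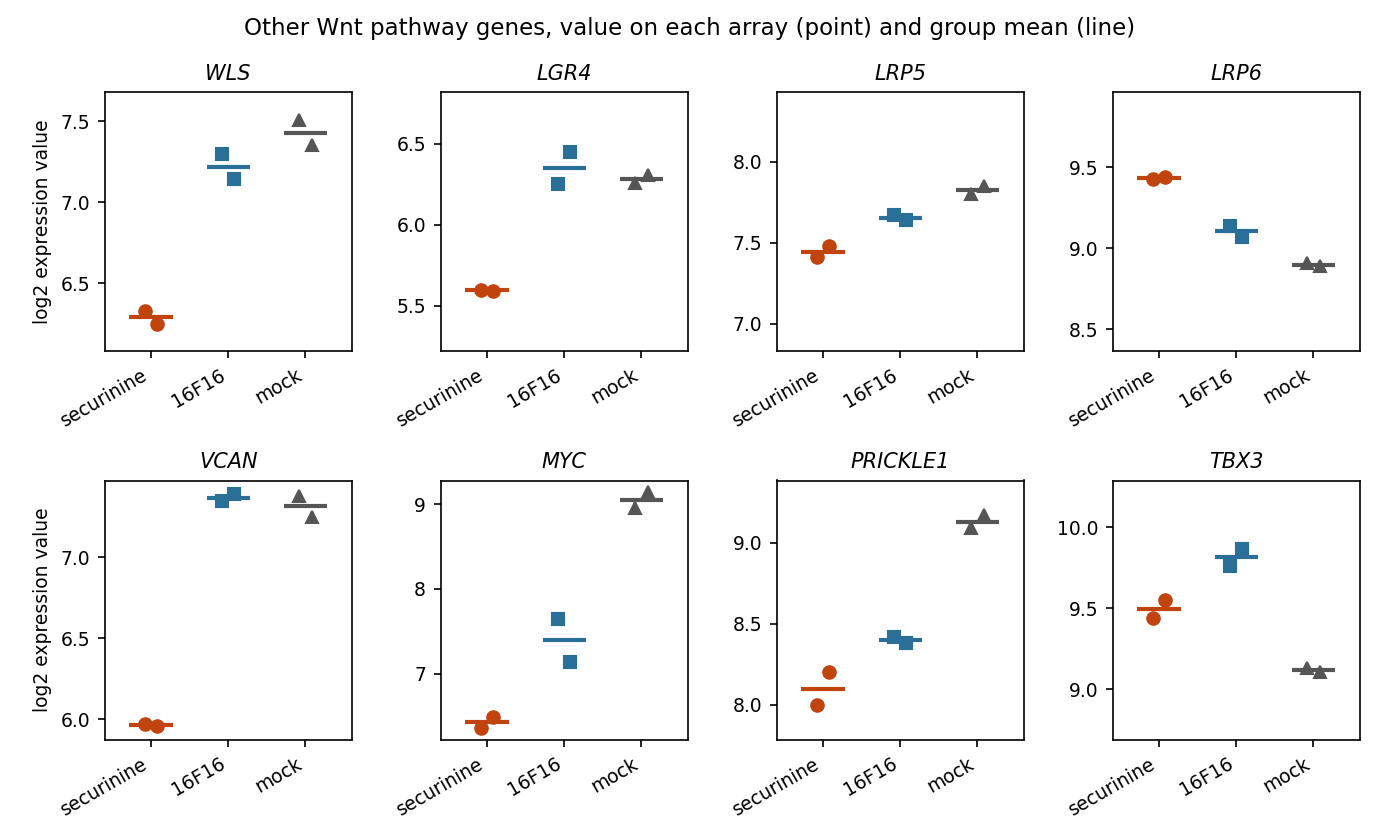
Log2 expression value of 8 other pathway genes on each array, with securinine, 16F16 and mock side by side, a point for each array and a line for the mean of 2. WLS, LGR4 and VCAN are low with securinine and near mock with 16F16, while PRICKLE1 and MYC are below mock with both compounds and LRP5 and LRP6 differ from mock in opposite directions with securinine.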

How the data were processed

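RNA of SH-SY5Y cells was read on 6 arrays. The authors deposited log2 values for 53617 probe sets. The submitters' processing notes name RMA and limma, with no version. RMA values are relative among these arrays, and a shift common to most genes is lost. The genome build is not given in the sources used. The platform table named 16098 probe sets with 1 symbol each, for 14884 genes, and the brightest probe set was taken where a gene had several. The members and lists were chosen with earlier results of these data known. Genes described with the value on every array were those with a call in any comparison or among the 8 brightest members. Some other members are given too. For other pathway genes, the 6 with the lowest adjusted p per compound were named, and further genes are marked where they were named after their values were seen.

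limma 3.58.1 in R 4.3.3 (lmFit, eBayes) was fitted to all genes and all 6 arrays with group as the term (3 residual and 2.68 prior degrees of freedom). P-values were two-sided, with Benjamini-Hochberg adjustment over 14884 genes. Errors after log2 differences are SE, with a median of 0.11. The number of arrays limits the precision. The fit was tested on simulated data. Alternatives covered normalization, variance prior, genes tested, dim probe sets, probe set choice, arrays fitted, a replicate block and each array left out. Replicate numbers were not taken as pairs.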

Additional observations from a re-analysis of the deposited data

How the results depend on the processing

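With securinine against mock, where 7 genes were called, the count was 5 with p-values adjusted over all probe sets (DKK3 and FZD1 lost). It was 8 in the fit of the 4 compared arrays (FZD1 lost, DKK2 and LEF1 gained). The count was 7 with quantile normalization, median centring, an intensity trend, a filter on dim probe sets or the mean of probe sets. Of all genes, 6.81% passed over all probe sets, 16.5% with the 4 compared arrays, 19.6% with quantile normalization and 18.0% with median centring. The share was 27.7% with an intensity trend, 23.9% of the genes kept by the filter and 18.8% with the mean of probe sets. Leaving out 1 array gave 4 to 8 genes, and DKK1, FZD2, FZD7 and SFRP1 were called in each of these fits: 4 without mock replicate 1, mock replicate 2 or securinine replicate 1, 6 without securinine replicate 2 and 8 without either 16F16 replicate. With 16F16 against mock the count was 3 with an intensity trend, where 12.1% of all genes passed, and 0 under every other alternative run. Leaving out any 1 array gave 0. For 16F16 against securinine, where 5 were called, the count was 8 with an intensity trend (20.9% of all genes). It was 7 with the filter on dim probe sets (13.4%), 6 with quantile normalization (10.1%) and 1 in the fit of the 4 compared arrays (2.18%). Over all probe sets 0 of the members, and 0 of all genes, passed. With the replicate number as a block (replicate block) 7 genes passed with securinine, with FZD8 in place of FZD1, 0 with 16F16 and 3 between compounds (DKK1, FZD7 and SFRP1). Of all genes, 13.9%, 0.00% and 3.38% passed in these comparisons. The deviations of same-numbered arrays correlated at -0.03, 0.04 and -0.05, and the numbers were not taken to pair the samples.

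Values near 0 changed sign for genes without a call. FZD6 with securinine, 0.013 as reported, was -0.011 with quantile normalization and -0.017 with median centring, and -0.071 to 0.097 over the fits without 1 array. FZD1 with 16F16 ranged from -0.052 to 0.043 over those fits. Between 16F16 and securinine, DKK2 was 0.024 with quantile normalization, 0.028 with median centring and -0.27 to 0.27 without 1 array, and FZD3 was 0.031 with quantile normalization. The cause was not tested. Depth is not defined for arrays, and brightness limits WNT2, RSPO2, RSPO3, SFRP2, SFRP5, FZD10 and DKK4. It also limits FZD8, FZD9 and SFRP4, which lay just above the median on their dimmest array.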
